A study of Homo sapiens with 8 samples.

Results

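Small cell lung cancer cells of the SBC-3 line, an established human line, were transfected with siRNAs against *DONSON*, and the RNA of each transfection was compared with that of mock cells. The 3 arrays labelled siDONSON-1, siDONSON-2 and siDONSON-3, of 8 arrays in the series, were taken by their labels, and no measured value entered that choice. On each array the siRNA-treated RNA was labelled with Cy5 (red) and the mock RNA with Cy3 (green). The labels name the same control cells both mock and untransfected, so whether they received the transfection reagent is not settled. Each siRNA was hybridised once, and dyes were not exchanged, so the 3 arrays are 3 different siRNAs and a dye effect particular to a gene is not removed. The labels do not say whether the mock RNA came from separate cultures. Unless stated otherwise, p-values measure only the spread between arrays of the same group, pooled over 8 arrays in 3 groups. The other arrays used below are 3 of A549 lung adenocarcinoma cells with *LOXL2* genome editing (Cy5) over A549 cells without editing (Cy3), and 2 of miR-150-3p transfection in squamous carcinoma lines, which entered only the estimate of the spread.

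*DONSON* encodes a replisome protein. In dividing cells the replicative helicase forms when CDC45 and the GINS complex join the MCM ring at licensed origins, and *DONSON* takes part in delivering GINS to that ring. Inherited loss of its function causes microcephaly and short stature. The endoplasmic reticulum (ER), which many of the changes below concern, folds secreted and membrane proteins with chaperones such as HSPA5. The unfolded protein response raises these chaperones when misfolded proteins accumulate, through the sensors ATF6, ERN1 and EIF2AK3, the last of which acts through the factor ATF4.

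Values are log2 ratios of Cy5 over Cy3 signal, averaged over the probes of a gene, so that a negative value is a signal below mock. A gene was called when the mean of its 3 ratios differed from 0 at a limma adjusted p under 0.05 (Benjamini-Hochberg over 14454 genes). On the 3 arrays 42.2% to 43.0% of spots were well above background in Cy3 and 49.6% to 53.7% in Cy5, and none was saturated. Over brighter spots, the log2 signal differed between pairs of these arrays with an SD of 0.138 to 0.149 in the mock channel and 0.373 to 0.506 in the siRNA channel. Between the *LOXL2* arrays it was 0.087 to 0.095 in Cy3 and 0.133 to 0.176 in Cy5. The pooled spread behind the p-values thus joins groups of unlike spread, and the siDONSON arrays varied more than the *LOXL2* arrays. In bulk RNA, fewer cells of a kind and less RNA per cell cannot be told apart.

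*DONSON* RNA was lower with every siRNA. Its single probe read 720.3 in mock and 162.5 with siDONSON-1, 648 and 187 with siDONSON-2, and 669 and 155 with siDONSON-3, in processed signal units. The log2 ratios were -2.15, -1.79 and -2.11, which lie close together and far from 0. The mean was -2.02 (SE 0.16, n = 3, limma adjusted p = 0.0017), or 24.7% of mock. On the *LOXL2* arrays the mean was 0.06, and the difference from them was -2.07 (limma adjusted p = 0.0037). With another background correction (normexp and loess) the mean was -0.89, still called with an adjusted p of 3.9e-04.

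Of 14454 genes tested, 1044 were called, 464 lower (3.21%) and 580 higher (4.01%). All of the called genes moved the same way on the 3 arrays, and all kept their direction when each array was centred. When each array was centred on its median, 553 were lower and 432 higher, so the excess of higher genes depended on centring. Without siDONSON-1 the count was 466 and without siDONSON-3 it was 97. With the spread taken from the 3 siDONSON arrays alone, 26 genes were called, 24 lower and 2 higher, and 2614 had an unadjusted p under 0.05. Whatever the size, 2683 genes (18.6%) were lower on all 3 arrays, 3478 (24.1%) were higher on all 3, and the other 8293 did not move one way.

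At a threshold of 1 in the processed signals, the siRNAs agreed mainly on the lower side. A ratio below -1 was found for 256, 414 and 263 genes with siDONSON-1, -2 and -3, and 62 genes (0.429%) were below -1 with all 3. A ratio above 1 was found for 311, 260 and 319 genes, and 6 genes (0.0415%) were above 1 with all 3. None of those 6 had a probe well above background in both channels on all 3 arrays, whereas 48 of the 62 did. Of the 62 genes, 32 had a value on every *LOXL2* array, and 2 of these were also below -1 there on all 3.

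The plot of the extreme genes shows the 15 lowest and 15 highest called genes among those measured in both channels. Their means ran from -2.52 to -1.74 and from 0.98 to 1.86. Of those with a value on every *LOXL2* array, 10 of 11 lowest and 5 of 14 highest genes were called with these arrays subtracted. Over all genes 3.51% were then called lower and 3.79% higher. With the spread of the 3 siDONSON arrays alone, 10 of the 15 lowest and 0 of the 15 highest were called.

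**Figure D1:**
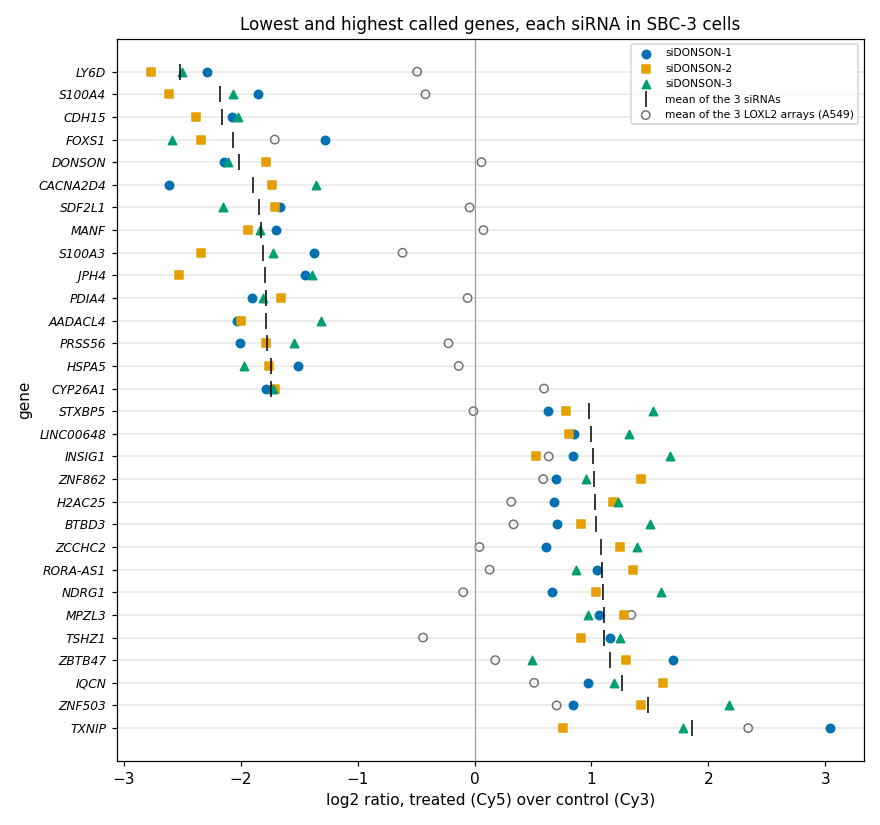
Log2 ratios (x axis) of the 15 lowest and 15 highest called genes (y axis) for each siRNA, with the mean of the 3 siRNAs (bar) and of the 3 *LOXL2* arrays of A549 cells (open circle, where measured). The 15 lowest genes are below -1 with every siRNA, whereas none of the 15 highest is above 1 with all 3.

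The lowest was *LY6D*, a GPI-anchored surface protein, with -2.29, -2.77 and -2.51 on the 3 arrays. Its mean was -2.52 (SE 0.17, limma adjusted p = 0.0017). *S100A4* and *S100A3*, calcium-binding proteins of one gene cluster, had means of -2.18 and -1.81. *CYP26A1*, which degrades retinoic acid, had -1.79, -1.71 and -1.72, the 3 siRNAs being nearly equal, against a mean of 0.59 on the *LOXL2* arrays. ER genes were 4 of the 15 lowest, namely *SDF2L1*, *MANF*, *PDIA4* and *HSPA5*. *FOXS1*, a forkhead factor, was also low on the *LOXL2* arrays, with means of -2.07 and -1.71, and the difference between them was not called (adjusted p = 0.64).

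Among the highest genes, *TXNIP*, an inhibitor of thioredoxin and of glucose uptake, had 3.04, 0.76 and 1.78, with a mean of 1.86 (SE 0.39, limma adjusted p = 0.035). Its mock signal was 636 on the siDONSON-1 array and 163 and 195 on the others, and its mean on the *LOXL2* arrays was 2.34. *NDRG1*, a hypoxia-responsive gene, had 0.66, 1.04 and 1.59, against -0.10 on the *LOXL2* arrays. *INSIG1*, which retains the cholesterol sensor in the ER, had 0.84, 0.53 and 1.67, and was not called against the *LOXL2* arrays. *TSHZ1* had 1.16, 0.91 and 1.24, and *ZNF503* had 0.84, 1.43 and 2.18, both being zinc finger factors.

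Genes of the ER folding machinery fell together with all 3 siRNAs. In the list of ATF4 and unfolded protein response genes, 7 of 24 were called lower (29.2%, against 3.21% of all genes) and 0 higher, with a median of -0.68, against a median of 0.03 over all genes. *SDF2L1*, a cofactor of ER chaperones, had -1.67, -1.70 and -2.16. *PDIA4*, a disulfide isomerase, had -1.90, -1.65 and -1.81. *HSPA5*, the major ER chaperone BiP, had -1.51, -1.76 and -1.97.

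Those 3 genes were below -1.5 with every siRNA, and the siRNAs differed little. The limma means were -1.84 (SE 0.11) for *SDF2L1*, -1.79 (SE 0.10) for *PDIA4* and -1.75 (SE 0.12) for *HSPA5*, and their adjusted p-values were 7.6e-04, 7.6e-04 and 9.3e-04. *HYOU1*, an ER chaperone of the HSP110 class, had -0.99, -0.91 and -0.88, with an adjusted p of 0.0053. On the *LOXL2* arrays the means of *SDF2L1*, *PDIA4*, *HSPA5* and *HYOU1* were -0.04, -0.06, -0.14 and -0.17. All 4 were called against the *LOXL2* arrays, with limma adjusted p-values of 0.0019, 0.0018, 0.0032 and 0.015.

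The rest of that list divided by siRNA. *ASNS*, asparagine synthetase, had -1.88, 0.60 and -1.94. *TRIB3*, a pseudokinase induced by ATF4, had -2.12, 0.43 and -1.81. *SLC7A11*, the cystine transporter, had -2.53, 1.05 and -1.23. These 3 amino acid response genes were lower with siDONSON-1 and siDONSON-3 and higher with siDONSON-2, and none was called. The medians of the whole list were -0.96, 0.23 and -0.75 on the 3 arrays, so its low median was not shared by siDONSON-2. *DDIT3*, *HERPUD1* and *SHMT2* were called lower, although siDONSON-2 gave -0.34, -0.57 and -0.33. On the *LOXL2* arrays *ASNS* and *SHMT2* were also low, at -1.42 and -0.82. The call count of the list was 4 without siDONSON-1, 15 without siDONSON-2 and 4 without siDONSON-3.

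**Figure D2:**
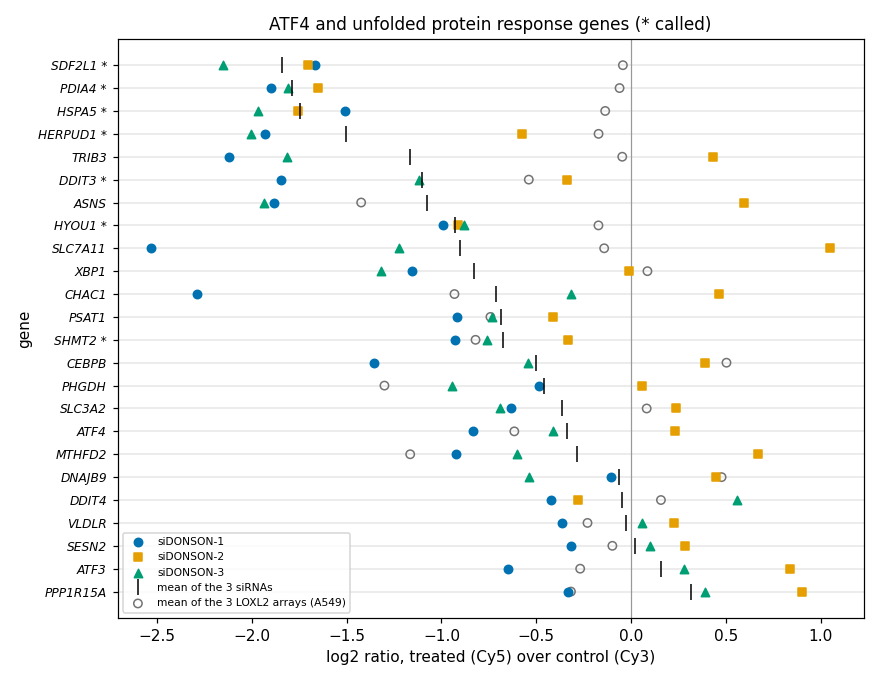
Log2 ratios (x axis) of the 24 genes of the ATF4 and unfolded protein response list (y axis) for each siRNA, with means of the siRNA arrays (bar) and *LOXL2* arrays (open circle). Asterisks mark called genes. *SDF2L1*, *PDIA4*, *HSPA5* and *HYOU1* are low with every siRNA, while *ASNS*, *TRIB3* and *SLC7A11* are on the other side of 0 with siDONSON-2.

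A broader list of 54 ER folding and quality control genes was written after the values above were seen, and is given as a description. Of 51 tested, 26 were called lower (51.0%, against 3.21% of all genes) and 1 higher, and 37 were lower on all 3 arrays, where 18.6% of all genes were. The list's median was -0.58, with -0.57, -0.50 and -0.74 on the 3 arrays and -0.04 on the *LOXL2* arrays. With the *LOXL2* arrays subtracted, 19 were called lower, against 3.51% of 13656 genes, of which another 3.79% were called higher. The number called in either direction was 22 without siDONSON-1, 27 without siDONSON-2 and 11 without siDONSON-3, and 6 were called lower with the spread of the 3 siDONSON arrays alone.

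Further members of this list, beside those above, were secreted factors and chaperones. *MANF*, a secreted ER stress factor, had -1.70, -1.94 and -1.83, and *CRELD2*, another, had -1.49, -1.43 and -1.55. *DNAJB11*, a J-protein partner of HSPA5, had -1.41, -1.37 and -1.47. *HSP90B1*, the ER form of HSP90, had -1.17, -1.15 and -1.11. For each of these 4 genes the siRNAs gave nearly the same value.

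The lectin chaperones *CALR* and *CANX* had means of -1.12 and -0.89, and *UGGT1*, which returns misfolded glycoproteins to them, had -0.73. Genes of ER-associated degradation were mixed. *SYVN1*, its ubiquitin ligase, had a mean of -1.05 and *SEL1L*, its partner, -0.73, both called. *OS9*, *DERL1* and *EDEM1* had means of -0.02, -0.08 and -0.25, none called. *NPLOC4*, a partner of the VCP segregase in the cytosol, was the 1 member called higher, with 0.37. The chaperone *DNAJB9*, a target of the ERN1 and XBP1 branch, had -0.10, 0.45 and -0.54.

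**Figure D3:**
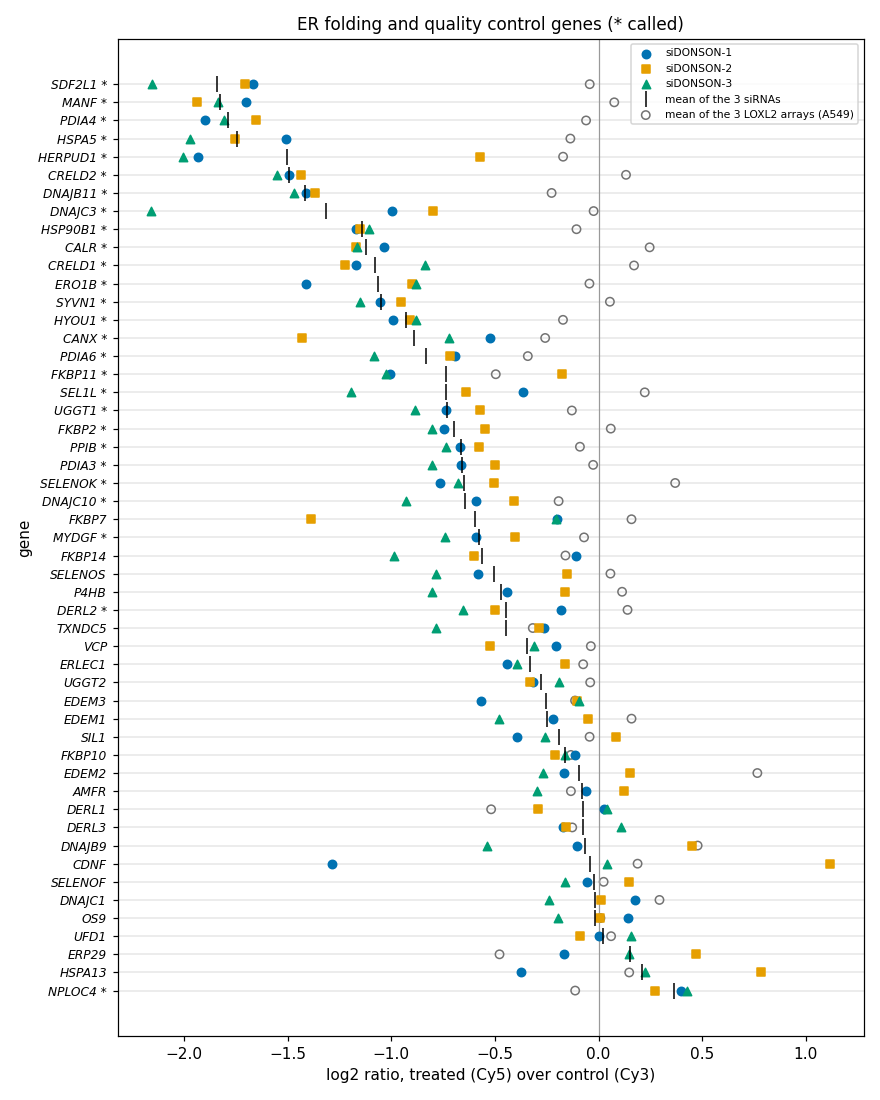
Log2 ratios (x axis) of the 51 tested ER folding and quality control genes (y axis) for each siRNA, with means of the siRNA arrays (bar) and *LOXL2* arrays (open circle). Asterisks mark called genes, 26 lower and 1 higher, and the list was chosen after values were seen.

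Of 11 sensor genes, also listed after values were seen, 2 were called lower (18.2%, against 3.21% of all genes) and 0 higher. The called genes were *CREB3L2* and *CREB3L4*, membrane-bound factors of the ATF6 kind, with means of -0.48 and -0.58. *ATF6* had -0.25, 0.30 and -0.20, and *EIF2AK3* had 0.10, 0.80 and -0.72, so the siRNAs did not move either gene one way. *XBP1* had -1.16, -0.01 and -1.32, and was not called (limma adjusted p = 0.073). In another such list, of 54 genes of ER protein entry and N-glycosylation, 10 were called lower (18.5%, against 3.21%) and 0 higher, with a median of -0.26. Among them were *ALG5* at -0.81, *SPCS3*, a signal peptidase subunit, at -0.78, and *STT3A*, the catalytic subunit of oligosaccharyltransferase, at -0.67. Without siDONSON-3, 1 gene of that list was called.

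The promoters of 6 ER genes are shown because these genes fell together. They span 250 bases before to 50 after the start site (RefSeq, GRCh38.p14). Capitals mark the CCAAT box (CCAAT, either strand) and the ER stress response element (CCAAT, any 9 bases, CCACG, either strand), a motif known to be bound by ATF6 with NF-Y, which contains a CCAAT box. *HSP90B1* and *CRELD2* and this motif were chosen after values were seen.
HSPA5, chr9:125241294-125241593, minus strand: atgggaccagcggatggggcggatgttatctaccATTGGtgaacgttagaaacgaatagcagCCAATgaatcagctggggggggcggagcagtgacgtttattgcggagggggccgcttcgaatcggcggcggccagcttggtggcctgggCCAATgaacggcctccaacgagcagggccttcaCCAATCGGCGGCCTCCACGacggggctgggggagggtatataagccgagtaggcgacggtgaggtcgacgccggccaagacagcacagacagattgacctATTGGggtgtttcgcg
HSP90B1, chr12:103930160-103930459, plus strand: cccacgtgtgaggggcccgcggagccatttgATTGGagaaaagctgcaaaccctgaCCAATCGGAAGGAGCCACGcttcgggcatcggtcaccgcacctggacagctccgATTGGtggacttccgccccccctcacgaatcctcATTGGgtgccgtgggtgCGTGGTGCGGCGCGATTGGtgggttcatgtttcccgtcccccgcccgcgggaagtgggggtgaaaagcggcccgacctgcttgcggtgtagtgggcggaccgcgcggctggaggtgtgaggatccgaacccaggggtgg
CRELD2, chr22:49918384-49918683, plus strand: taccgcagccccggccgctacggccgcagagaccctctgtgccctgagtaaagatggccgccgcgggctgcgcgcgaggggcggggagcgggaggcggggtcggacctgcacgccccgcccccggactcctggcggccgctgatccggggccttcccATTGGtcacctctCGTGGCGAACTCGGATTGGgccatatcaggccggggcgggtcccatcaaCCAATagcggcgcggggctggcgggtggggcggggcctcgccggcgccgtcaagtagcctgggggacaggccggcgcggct
PDIA4, chr7:149028441-149028740, minus strand: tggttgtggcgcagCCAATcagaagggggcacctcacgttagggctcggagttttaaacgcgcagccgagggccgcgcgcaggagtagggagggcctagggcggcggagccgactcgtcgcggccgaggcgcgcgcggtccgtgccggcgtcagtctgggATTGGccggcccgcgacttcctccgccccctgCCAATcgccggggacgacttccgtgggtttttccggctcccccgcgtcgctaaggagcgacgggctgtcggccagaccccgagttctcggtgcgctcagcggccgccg
SDF2L1, chr22:21642052-21642351, plus strand: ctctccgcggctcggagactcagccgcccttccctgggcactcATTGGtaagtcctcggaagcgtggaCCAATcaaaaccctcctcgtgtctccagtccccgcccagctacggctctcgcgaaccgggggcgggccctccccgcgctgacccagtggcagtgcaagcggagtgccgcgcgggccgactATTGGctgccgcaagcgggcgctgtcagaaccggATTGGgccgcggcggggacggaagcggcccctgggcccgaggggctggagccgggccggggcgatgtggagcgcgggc
HYOU1, chr11:119057156-119057455, minus strand: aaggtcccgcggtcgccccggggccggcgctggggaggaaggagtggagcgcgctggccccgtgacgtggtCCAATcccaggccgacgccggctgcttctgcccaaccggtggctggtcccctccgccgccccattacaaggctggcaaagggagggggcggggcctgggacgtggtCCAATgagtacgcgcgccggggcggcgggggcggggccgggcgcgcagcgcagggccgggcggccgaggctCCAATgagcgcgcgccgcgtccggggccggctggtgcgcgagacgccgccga

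*HSPA5* held 1 full element, *HSP90B1* 2 and *CRELD2* 1, and *PDIA4*, *SDF2L1* and *HYOU1* held CCAAT boxes without the full element in this window. In *HSPA5* the element ran from -66 to -48 relative to the start site. Of 27305 promoters in the table, 22 held the full element (0.0806%). Of 11249 tested genes with a promoter, 14 held it, 7 of which were among the 353 called lower (1.98%) and 0 among the 464 called higher. The 7 were *HSPA5*, *CRELD2*, *HSP90B1*, *CALR*, *ERO1B*, *CANX* and *TRIM5*. The other 7 included *XBP1*, *FICD* at -0.75 and *SERP1* at -0.22, and the mean of all 14 was below 0 in each case. The CCAAT box alone was in 38.0% of called lower, 34.3% of called higher and 36.8% of all tested promoters. A match is a description of letters and not a binding site.

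The helicase genes around *DONSON* were not called. In the list of the replicative helicase and its activators, *DONSON* was the 1 gene called of 22 tested (4.5% lower and 0 higher). Over all genes 3.21% were called lower and 4.01% higher, so a count this low in a list of this size sets it little apart. Whatever the size, 8 of the 22, *DONSON* among them, were lower on all 3 arrays and 0 were higher. Over all genes 18.6% were lower and 24.1% higher on all 3. The median of the list was -0.14 with the siRNAs and -0.14 on the *LOXL2* arrays. The GINS subunits *GINS1*, *GINS2*, *GINS3* and *GINS4* had means of 0.05, 0.04, -0.14 and -0.15. The MCM subunits ranged from -0.32 (*MCM6*) to 0.06 (*MCM2*). *CDC45*, which completes the helicase, had -0.87, 0.10 and -0.67, and *TICRR* and *MTBP*, which bring factors to origins, had means of -0.01 and -0.39. Their errors came in part from the miR-150-3p arrays. The median SE of the list was 0.25 over 8 arrays and 0.10 over the 6 siDONSON and *LOXL2* arrays, and *DONSON* was again the 1 gene called in the second fit, in which 4.45% of all genes were called lower and 5.31% higher.

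**Figure D4:**
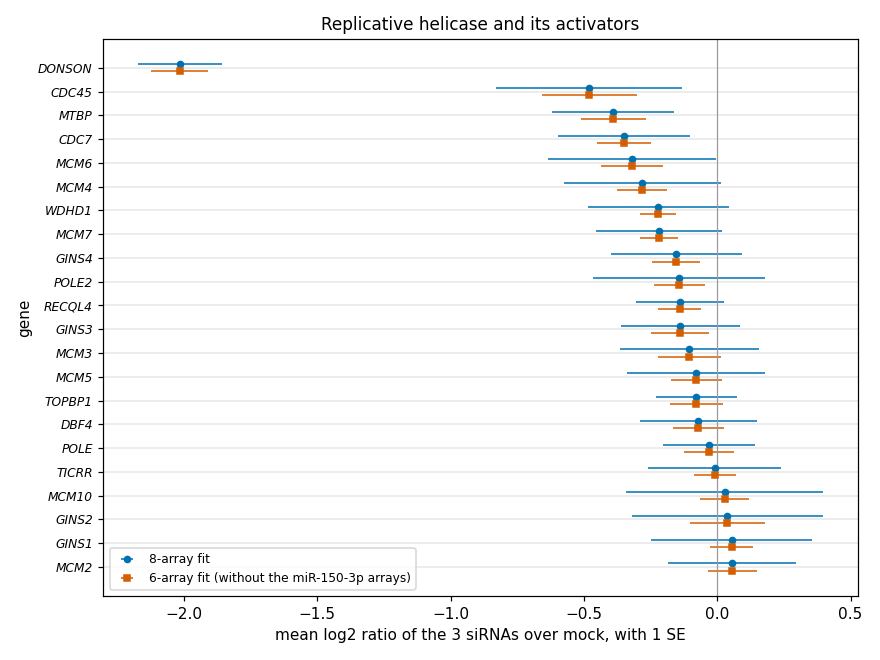
Mean log2 ratio of the 3 siRNAs over mock (x axis) for 22 genes of the replicative helicase and its activators (y axis), with 1 SE from the fit of 8 arrays (circles) and of 6 arrays (squares). *DONSON* stands at -2.02 and the other 21 genes lie between -0.48 (*CDC45*) and 0.06 (*MCM2*).

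The other replication and repair lists differed in their share of limma calls, against 3.21% lower over all genes and 4.45% over 6 arrays. Origin licensing had 0 of 10 called (1 with an unadjusted p under 0.05), and homologous recombination and Fanconi anemia genes had 0 of 28 (1 with an unadjusted p under 0.05, and 3 called over 6 arrays). *RFC1*, the large subunit of the clamp loader, had -0.59, -0.96 and -0.45, the 1 call among 20 polymerase and clamp genes, which became 4 lower over 6 arrays. Of 13 fork protection and ATR checkpoint genes, *RAD17* (-0.50) and *RAD9A* (-0.44), which load and form the checkpoint clamp, were called lower (15.4%), and 5 were over 6 arrays. Of 16 nucleotide synthesis genes, *ATIC* and *IMPDH2*, enzymes of purine synthesis, were called lower (12.5%) with means of -0.51 and -0.50, and 3 were over 6 arrays. Of 41 G2/M genes none was called and none had an unadjusted p under 0.05, and 1 was called over 6 arrays. The medians of that list were 0.03, -0.45 and 0.01, so its median was low with siDONSON-2 alone. Whatever the size, 13 of the 41 were lower on all 3 arrays, and 8 of 16 nucleotide synthesis genes, with 0 higher in either list. In licensing 4 of 10 were lower and 1 higher, and in recombination 6 of 28 and 5. Of polymerase and clamp genes 6 of 20 were lower and 1 higher, and of checkpoint genes 6 of 13 and 1. Over all genes these shares were 18.6% lower and 24.1% higher.

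Among the replication-dependent histone genes listed, the calls were in 1 class. Of 14 H2B genes tested, 8 were called higher (4.01% of all genes were), and of the 13 H2A, 10 H3, 11 H4 and 4 H1 genes of the list none was. The H2B medians were 0.31, 0.46 and 0.51 on the 3 arrays, whereas those of H3 were -0.78, 0.15 and -0.24. *H2BC12* was the highest of the listed genes, with 1.05, 0.78 and 1.03. *H2AC25*, an H2A gene outside the list, was also called higher, with 0.68, 1.18 and 1.23 and a mean of 1.03 above that of *H2BC12*, so higher calls were not limited to H2B. On the *LOXL2* arrays the H2B median was 0.24, and none of the H2B genes was called higher against those arrays. H2B genes are near-identical, so probes may read several of them.

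Genes that p53 raises were higher in part. Of 30 tested, 4 were called higher (13.3%, against 4.01% of all genes) and 0 lower. On all 3 arrays 12 were higher, where 24.1% of all genes were, and 0 were lower. The list had a median of 0.20, and of 0.14 on the *LOXL2* arrays. *CDKN1A*, the cell cycle inhibitor p21, had 0.86, 1.22 and 0.46, and *TIGAR*, a regulator of glycolysis, had 0.57, 1.29 and 0.91. *TNFRSF10B*, a death receptor, and *TRIAP1* had means of 0.51 and 0.45. *CDKN1A* had a mean of 0.94 on the *LOXL2* arrays too, and was not called against them (limma adjusted p = 0.86). With the *LOXL2* arrays subtracted, 3 of the 30 were called higher and 0 lower, where 3.79% and 3.51% of all genes were. Without siDONSON-3 none of the list was called. In the BCL2 family 0 of 16 were called, 4 had an unadjusted p under 0.05, and 7 were higher on all 3 arrays, where 24.1% of all genes were, against 0 lower.

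Of 16 MAPK output genes, 4 were called higher (25%, against 4.01% of all genes) and 1 lower. *SPRY2*, a feedback inhibitor, had 1.07, 0.53 and 0.96, and *DUSP5*, *SPRED2* and *FOSL1* had means of 0.51, 0.56 and 0.73. *EGR1*, an immediate early factor, had -1.19, -0.87 and -0.75, and was lower still on the *LOXL2* arrays, at -1.36. Of 13 small RNA genes, *DICER1*, *TNRC6A* and *TNRC6C* were called higher (23.1%, against 4.01%), with means of 0.72, 0.63 and 0.65. With the *LOXL2* arrays subtracted, 1 of the 13 was called higher, where 3.79% of all genes were. Without siDONSON-3, 0 of the 13 were called. *LAMC1*, a laminin chain, had 0.90, 0.83 and 0.81, the 1 call among 18 collagen and matrix genes (5.6% higher, against 4.01%). *TGFB1* and *AMOTL2* had 0.52 each as means, the 2 calls among 10 TGF-beta and YAP target genes (20% higher, against 4.01%). *AMOTL2* was not called against the *LOXL2* arrays (limma adjusted p = 0.45). *OSGIN1*, an NRF2 target, had a mean of 0.89, but its mock signal was not well above background on any of the 3 arrays. It was the 1 call among 13 NRF2 targets tested (7.7% higher, against 4.01% of all genes). With normexp and loess 0 of the 13 were called higher. *LDHA* and *TPI1*, enzymes of glycolysis, were called lower at -0.43 and -0.72. They were 2 of 24 glycolysis and hypoxia genes (8.3%, against 3.21% of all genes called lower), of which 1 was called higher. *HSPA1B*, the inducible HSP70, was called lower at -1.01, the 1 call among 13 heat shock genes (7.7%, against 3.21%). *HSPA1B* was not called against the *LOXL2* arrays (limma adjusted p = 0.11). Of 29 interferon-stimulated genes tested 0 were called, with 5 at an unadjusted p under 0.05, and of 15 NF-kB genes 0 were, with 2 at that level.

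Neighbouring and lineage genes were read as checks. Of 13 chromosomal neighbours of *DONSON*, 1 was called lower (7.7%, against 3.21% of all genes) and 0 higher, which sets a list of this size little apart. The called gene was *TMEM50B*, with -1.16, -0.36 and -1.58. *SON*, next to *DONSON*, had a mean of 0.11. Among small cell lineage genes *NEUROD1*, *CHGA*, *CHGB*, *SYP* and *DLL3* were well above background in the mock channel on all 3 arrays, and *INSM1*, *NCAM1*, *GRP* and *UCHL1* on none. None of the 9 tested genes of that list was called, with 1 at an unadjusted p under 0.05. Of the 8 tested markers of other cell types none was called either, with 2 at that level.

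**Figure D5:**
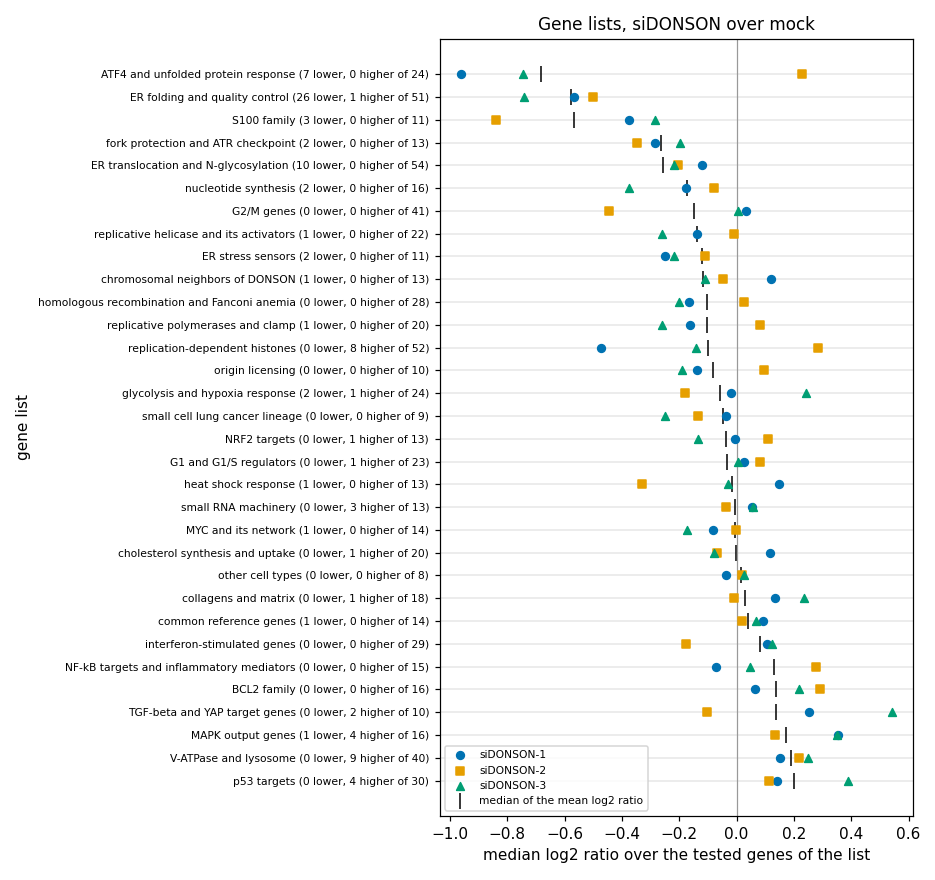
Median log2 ratio (x axis) over the tested genes of each list (y axis, with the number called lower and higher of those tested) for each siRNA, and the median of the genes' means (bar). The ATF4 and unfolded protein response list is lowest but lies above 0 with siDONSON-2, whereas ER folding is below 0 with all 3.

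Genes dim in one channel have only a bound. Of the called genes, 79 higher ones were not well above background in mock on any array, and 5 lower ones were not in the siRNA channel. *MMP7*, a matrix metalloproteinase, was at least 3.47-fold higher, and *SMPDL3A* at least 2.37-fold higher. The bounds of *SLC4A5* and *AZU1* were 1.97-fold and 1.73-fold. *C10orf105* was at least 3.62-fold lower, and *MAGEB3* and *CHRNA6* at least 2.72-fold and 2.61-fold. The bounds compare the measured group with the lowest signal well above background on each array, or with the dim probe's own signal if higher. They hold for the processed signals only. With normexp and loess the mean log2 ratios of *C10orf105*, *CHRNA6* and *AZU1* were -0.22, -0.13 and 0.13, smaller changes than these bounds. Of these genes, *CHRNA6* and *AZU1* were not called there.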

How the data were processed

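RNA was hybridised to 2-colour Agilent arrays (design 072363), and the labels name Trizol extraction and RNAiMAX transfection. The authors deposited scanner files made with Feature Extraction 12.1.1.1 (protocol GE2_1200_Dec17), whose processed intensity values are background-subtracted and dye-normalized. A deposited table of log10 ratios held the same values as the files' own ratios. Here log2(Cy5/Cy3) was taken from processed intensities for non-control spots that were not outliers and were well above background in at least 1 channel. Of 58201 probes, 31104 matched a RefSeq accession and were averaged over 22439 genes. Models were fitted in limma 3.58.1 (R 4.3.3) over 8 arrays in 3 groups, tested on simulated data, with Benjamini-Hochberg adjustment.

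Named genes were *DONSON*, the helicase genes, the 15 lowest and 15 highest called genes measured in both channels on all 3 arrays, up to 4 called genes per list, and up to 4 per direction with a bound. Other genes named were chosen after their values were seen. Members and lists were chosen with earlier results of these data known. Alternatives were another background correction with normexp (offset 50, on median signals) and loess, median centring, filters, probe choice, other sources of the spread, subtraction of the *LOXL2* arrays and leaving out each siRNA. Array number, 1 per siRNA, limits the precision. Sequences of the siRNAs were not used here. Some genes are not reported here.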

Additional observations from a re-analysis of the deposited data

How the results depend on the processing

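The *DONSON* mean stayed below 0 and called under every alternative run, between -2.13 and -0.89. Without a filter on dim probes 2897 genes were called (2133 lower, 764 higher), and normexp with loess gave 967 higher. With the spread of the 3 siDONSON arrays alone 26 were called, 24 lower and 2 higher. A mean of at least 0.5 in size left the other counts within 1.5 times of those reported. Leaving out 1 siRNA gave 97 to 1115 called genes, 58 to 483 lower and 39 to 632 higher. Genes below -1 on all 3 arrays numbered 9 with normexp and loess, 157 with the *LOXL2* arrays subtracted, 243 at a threshold of -0.5 and 90 to 110 with 1 siRNA left out. Genes above 1 on all 3 arrays numbered 0 with normexp and loess, 112 with the subtraction, 192 at a threshold of 0.5, 1 with both channels above background, 24 without the dim filter and 46 to 99 with 1 siRNA left out, where fewer arrays had to pass. The cause of the other shifts was not tested. Subtracting the *LOXL2* arrays turned *AZU1* (-0.75), *CDKN1A* (-0.093), *DUSP5* (-0.20), *EGR1* (0.42), *MPZL3* (-0.24), *TNRC6C* (-0.29) and *TXNIP* (-0.48). Of the 1044 called genes, 200 (122 lower, 78 higher) were called the same way in all 10 refits that kept the 3 siRNAs, other than the one with the 3-array spread. The minimum size of 0.5 is no refit and was not counted. No paired analysis was possible because each siDONSON array is tested against 0, and the shared numbers name different siRNAs and different edited lines.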

Other observations

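Genes of the V-ATPase and lysosome were higher in part. In a list of 42 written after values were seen, 9 of 40 tested were called higher (22.5%, against 4.01% of all genes) and 0 lower. The median was 0.19, which the *LOXL2* arrays shared (0.19). With the *LOXL2* arrays subtracted, 2 were called higher and 2 lower, where 3.79% and 3.51% of all genes were. *ATP6V0E1* and *ATP6V1G1*, subunits of the proton pump, had 1.07, 0.65 and 0.80, and 0.91, 0.66 and 0.93. *SQSTM1*, an autophagy receptor, had 0.80, 0.73 and 0.68 against -0.21 on the *LOXL2* arrays, whereas *GRN* and *CTSF*, with means of 0.66 and 0.73, were at 0.58 and 0.61 there. Without siDONSON-3, 1 gene of the list was called. Of 11 tested genes of the S100 family, also listed after values were seen, *S100A2*, *S100A3* and *S100A4* were called lower (27.3%, against 3.21% of all genes). *S100A2* had -1.07, -2.17 and -1.45.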
